A study of Homo sapiens with 6 samples.

Results

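Cation channels of the endolysosomal membrane were followed in 6 genes: the mucolipins MCOLN1, MCOLN2 and MCOLN3, the two-pore (TPC) channels TPCN1 and TPCN2, and the potassium and proton channel TMEM175. They were chosen by gene symbol and with measured values in view, since the low MCOLN3 signal of the CSF3 arrays was already known. All their probe sets that the platform annotation assigns to a single gene were taken, which gave 18 of 44988 such probe sets. Because the choice used the contrast between CSF3 and Ctrl arrays, the differences of these genes are given as a description, without p-values.

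Total RNA of cells labelled HCT116, a human colorectal carcinoma line, was measured on 6 Affymetrix arrays. Of these, 3 came from cells labelled Ctrl with the treatment given as control, and 3 from cells labelled CSF3 with the treatment given as CSF3, the granulocyte colony-stimulating factor gene. Both groups were grown in RPMI-1640 medium with serum and antibiotics. Whether the factor was added, expressed from a vector or altered otherwise, for how long, and whether the samples of a group were separate cultures is not said, so the spread between arrays may be technical only. The labels name no clone, and 3 arrays a group limit the precision.

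Mucolipins belong to the TRP superfamily and release calcium and other cations from endosomes and lysosomes when the lipid PI(3,5)P2 is present. TPC channels are built from a pair of linked six-segment channel units, release sodium or calcium from the same compartments, and answer to PI(3,5)P2 and, through accessory proteins, to the messenger NAADP. TMEM175 carries potassium and protons and takes part in setting lysosomal pH. Calcium leaving through MCOLN1 can activate calcineurin, which acts on TFEB, a transcription factor of lysosomal and autophagy genes.

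The arrays differed in ways that touch every value here. Pearson's r across probe sets was at least 0.998 between Ctrl arrays, at least 0.994 between CSF3 arrays and 0.970 to 0.974 between groups. In the dimmer part of all probe sets, split at the median level, the median difference of CSF3 minus Ctrl was 0.23 on the log2 scale, and in the brighter part it was -0.16. All 23 background probe sets, which match no human gene, read higher on the CSF3 arrays, by 0.005 to 0.34. The median of the 18 hybridisation controls, taken on each array, had a group mean 1.53 higher on the CSF3 arrays. The gap between the 3' and 5' probe sets of GAPDH was 0.306 ± 0.007 on Ctrl and 0.682 ± 0.003 on CSF3 arrays (SD, n = 3). The brightest of the 3 CSF3 probe sets gave 4.83 ± 0.30 and 5.96 ± 0.04 (SD, n = 3). Of 6 epithelial markers, KRT8 and KRT18 lay above the median gene of the Ctrl arrays (4.42), whereas EPCAM, KRT19, CLDN7 and CDH1 read 3.63, 2.61, 2.93 and 2.20 there. Signals of different probe sets cannot be compared as levels, so these values neither support nor oppose the label. With the same limit, the 4 measured blood cell markers and the 6 markers of fibroblasts and endothelium all lay below the median gene in both groups. Of the latter 6, 5 were called higher and 0 lower on the CSF3 arrays, and of the 4 blood cell markers 3 and 0. Among the 6 epithelial markers 2 were called higher (KRT18 0.22, KRT19 0.47) and 2 lower (KRT8 -1.32, EPCAM -0.33). Of all genes 45.4% were called higher and 27.1% lower. Log2 values of the 6 fibroblast and endothelial markers summed to 16.1 to 16.5 on Ctrl and 20.0 to 20.1 on CSF3 arrays. Those of the 4 blood cell markers summed to 8.96 to 9.60 and 10.3 to 10.7, and of the 6 epithelial markers to 24.8 to 25.2 and 24.2 to 24.5. Such a sum is not itself a level. Median differences of these lists were 0.65, 0.33 and 0.13, against 0.15, 0.23 and 0.21 among probe sets of like level. The part of these array and marker differences in the results below was not tested.

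MCOLN3, the mucolipin of early and late endosomes, was lower on the CSF3 arrays on all 3 of its probe sets. The brightest, 11746600_a_at, read 6.76, 6.94 and 6.80 on the Ctrl arrays and 4.77, 4.80 and 5.15 on the CSF3 arrays. Every CSF3 array lay more than 1 log2 unit below every Ctrl array, and the mean difference was -1.93 ± 0.11 (SE, n = 3 each), or 26.3% of the Ctrl signal if the logarithm is to base 2. The probe set 11755444_a_at read 4.93, 5.04 and 4.97 on Ctrl and 3.71, 2.81 and 3.12 on CSF3 arrays, a difference of -1.76 ± 0.20. Its CSF3 values were spread more widely (SD 0.46 against 0.06) but stayed below all Ctrl values. The third, 11760495_a_at, moved less, from 5.30, 5.37 and 5.22 to 4.82, 4.62 and 4.82, a difference of -0.54 ± 0.08. The probe sets of MCOLN3 therefore shared a direction without sharing a size, since their differences spanned 1.39 log2 units against a largest standard error of 0.20.

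**Figure D1:**
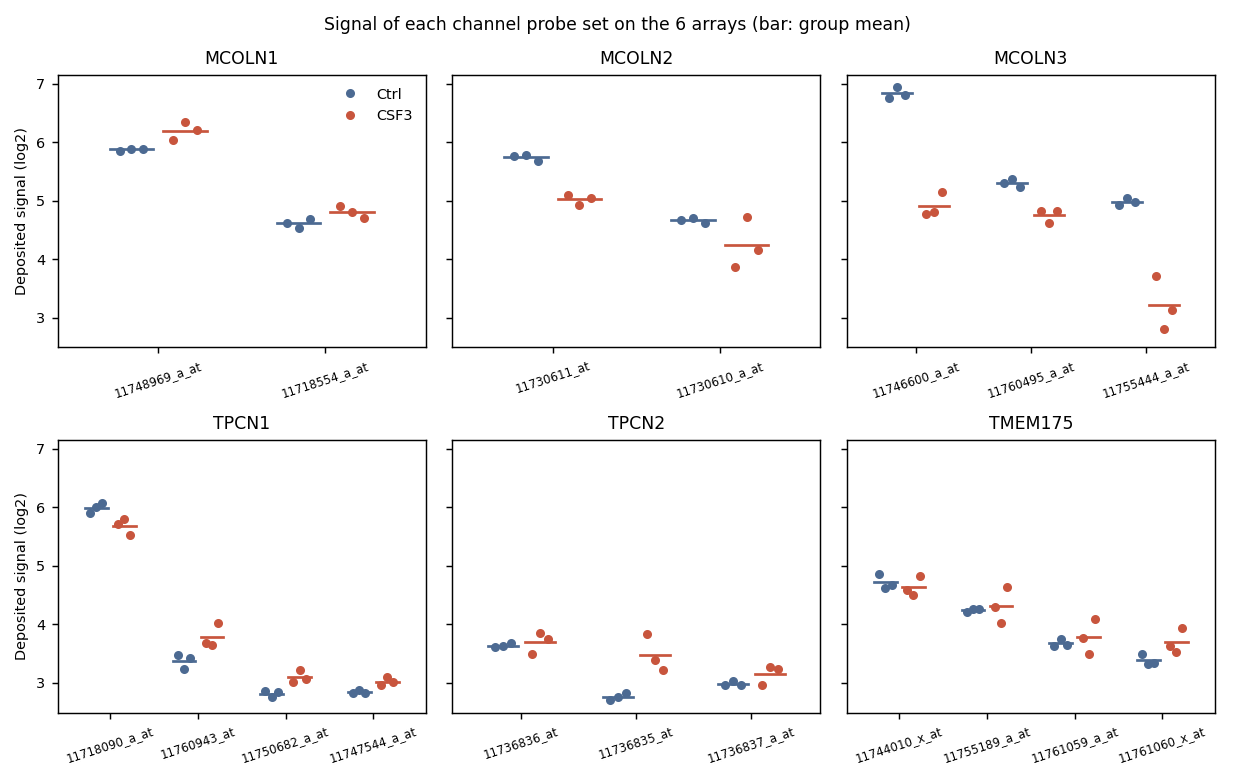
Deposited log2 signal (vertical axis) of the 18 probe sets of the 6 channel genes on each array, with Ctrl arrays in blue, CSF3 arrays in red and bars at the group means of 3 arrays. The 3 MCOLN3 probe sets, the brighter MCOLN2 probe set and the brightest TPCN1 probe set have all CSF3 points below all Ctrl points. The points of TMEM175 overlap on 3 of its 4 probe sets.

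MCOLN2, best known from immune cells, pointed the same way with smaller differences. On 11730611_at the Ctrl arrays read 5.76, 5.77 and 5.68 and the CSF3 arrays 5.09, 4.92 and 5.05, a difference of -0.72 ± 0.07 without overlap. On 11730610_a_at the Ctrl arrays read 4.67, 4.70 and 4.62 and the CSF3 arrays 3.87, 4.72 and 4.16. CSF3 replicate 2 thus lay above every Ctrl array on this probe set, while the other two CSF3 arrays lay below them. The difference of -0.42 ± 0.19 became -0.65 without CSF3 replicate 2 and -0.23 without CSF3 replicate 1.

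MCOLN1, the widely expressed lysosomal mucolipin whose loss causes mucolipidosis type IV, was the mucolipin that read higher. Its brighter probe set, 11748969_a_at, gave 5.85, 5.88 and 5.88 on Ctrl and 6.03, 6.34 and 6.20 on CSF3 arrays, a difference of 0.32 ± 0.08. The other, 11718554_a_at, gave 4.61, 4.54 and 4.68 against 4.91, 4.81 and 4.70, a difference of 0.20 ± 0.07. The groups did not overlap on either probe set, although on the second the gap between the lowest CSF3 and the highest Ctrl array was small. These differences are no larger than the highest one among the background probe sets (0.34). They grew under other scalings, to 0.58 and 0.37 after quantile normalization and to 0.55 and 0.30 after cyclic loess normalization.

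The promoters of the mucolipin that read higher and of the one that read lowest against Ctrl are shown because MCOLN1 is a known TFEB target, and TFEB binds E-boxes of the form CACGTG. Both are the 250 bases upstream of the gene start, 5' to 3' on the gene's strand, from RefSeq on GRCh38.p14: chr19:7522374-7522623 on the plus strand for MCOLN1 and chr1:85048501-85048750 on the minus strand for MCOLN3. Capitals mark matches to TCACGTGA, a palindrome that contains the E-box.
MCOLN1: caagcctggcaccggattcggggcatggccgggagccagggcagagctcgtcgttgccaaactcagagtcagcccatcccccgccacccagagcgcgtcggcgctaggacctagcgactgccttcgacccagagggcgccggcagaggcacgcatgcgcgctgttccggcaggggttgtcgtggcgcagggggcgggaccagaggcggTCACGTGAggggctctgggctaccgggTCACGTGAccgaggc
MCOLN3: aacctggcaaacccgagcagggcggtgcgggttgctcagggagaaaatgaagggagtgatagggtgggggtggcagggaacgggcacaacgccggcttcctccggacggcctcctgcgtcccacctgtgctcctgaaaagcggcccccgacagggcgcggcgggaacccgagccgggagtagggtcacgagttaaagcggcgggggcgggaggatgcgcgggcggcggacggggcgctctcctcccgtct
MCOLN1 held 2 such matches, with their inner E-boxes starting at positions -41 and -14 from the gene start, and the MCOLN3 window held none. Among 35116 RefSeq promoter windows of 300 bases (250 before the start and 50 after), 7.26% held CACGTG and 0.980% held TCACGTGA on either strand, every match of the longer word being one of the shorter. The windows of TPCN1 (2 starts), TPCN2 and TMEM175 held no CACGTG. The NF-κB consensus, searched on both strands, matched once in the TPCN2 window and in no other window of these genes, against 11.3% of all windows. A match describes letters only, and MCOLN2 had no entry in the table used.

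TPCN1, the TPC channel of endosomes, differed in direction between its probe sets. The brightest, 11718090_a_at, read 5.90, 6.01 and 6.07 on Ctrl and 5.72, 5.80 and 5.52 on CSF3 arrays, a difference of -0.31 ± 0.09 without overlap. The 3 dimmer ones read higher on the CSF3 arrays, also without overlap: 11760943_at by 0.41 ± 0.11, 11750682_a_at by 0.29 ± 0.07 and 11747544_a_at by 0.18 ± 0.06. The last of these and 11760943_at are annotated to the same transcript record, so they are not separate targets. Averaged over its probe sets, TPCN1 differed by 0.14 ± 0.05. The brightest probe set was at -0.05 after quantile and -0.09 after cyclic loess normalization, so TPCN1 has no settled direction.

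TPCN2, the lysosomal and melanosomal TPC channel, stood out on 1 of its 3 probe sets. On 11736835_at the Ctrl arrays read 2.70, 2.75 and 2.83 and the CSF3 arrays 3.83, 3.40 and 3.23, a difference of 0.72 ± 0.14. All CSF3 arrays were higher there, CSF3 replicate 1 by the most, and without it the difference was 0.55. Its other probe sets overlapped between the groups, with 3.61, 3.63 and 3.67 against 3.49, 3.86 and 3.74 on 11736836_at (0.06 ± 0.10) and 2.96, 3.03 and 2.97 against 2.97, 3.27 and 3.23 on 11736837_a_at (0.17 ± 0.09). Without CSF3 replicate 2 the first was at -0.02. After cyclic loess normalization both probe sets were slightly negative, at -0.051 and -0.035.

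TMEM175 had small differences on 3 of its 4 probe sets. Its brightest probe set, 11744010_x_at, read 4.86, 4.62 and 4.68 on Ctrl and 4.59, 4.51 and 4.82 on CSF3 arrays, a difference of -0.08 ± 0.10. The other 3 gave 0.08 ± 0.14, 0.11 ± 0.14 and 0.31 ± 0.11, and only 11761060_x_at, at 3.49, 3.33 and 3.34 against 3.64, 3.53 and 3.93, had groups that did not overlap. Without CSF3 replicate 3 the 3 differences became -0.08, -0.04 and 0.19, and without CSF3 replicate 2 they became 0.22, 0.26 and 0.40, so a single array decides the sign of the first pair. That probe set and 11761059_a_at are annotated to the same transcript record, and names ending in _x_at mark probe sets that may pick up other sequences. On all 4 probe sets CSF3 replicate 3 was the highest and CSF3 replicate 2 the lowest CSF3 array, an order found in 15.4% of all probe sets.

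Read over all 18 probe sets, limma called 7 higher and 5 lower for CSF3 (adjusted p under 0.05), and the same numbers had groups that did not overlap. Among all probe sets, 36.7% were called higher and 28.8% lower, and 39.8% and 30.9% had non-overlapping groups in those directions. Since the choice used this contrast, nothing is read from these counts. After quantile normalization 4 were called higher and 4 lower, when 12597 and 11292 of all 44988 probe sets were. After cyclic loess normalization the numbers were 3 and 4, when 11509 and 12255 of all probe sets were called. The 3 MCOLN3 probe sets and 11730611_at of MCOLN2 were the 4 lower ones in both, and the MCOLN1 pair and 11736835_at of TPCN2 were called higher in both. These calls come from the same arrays and the same contrast, so nothing is read from them either.

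**Figure D2:**
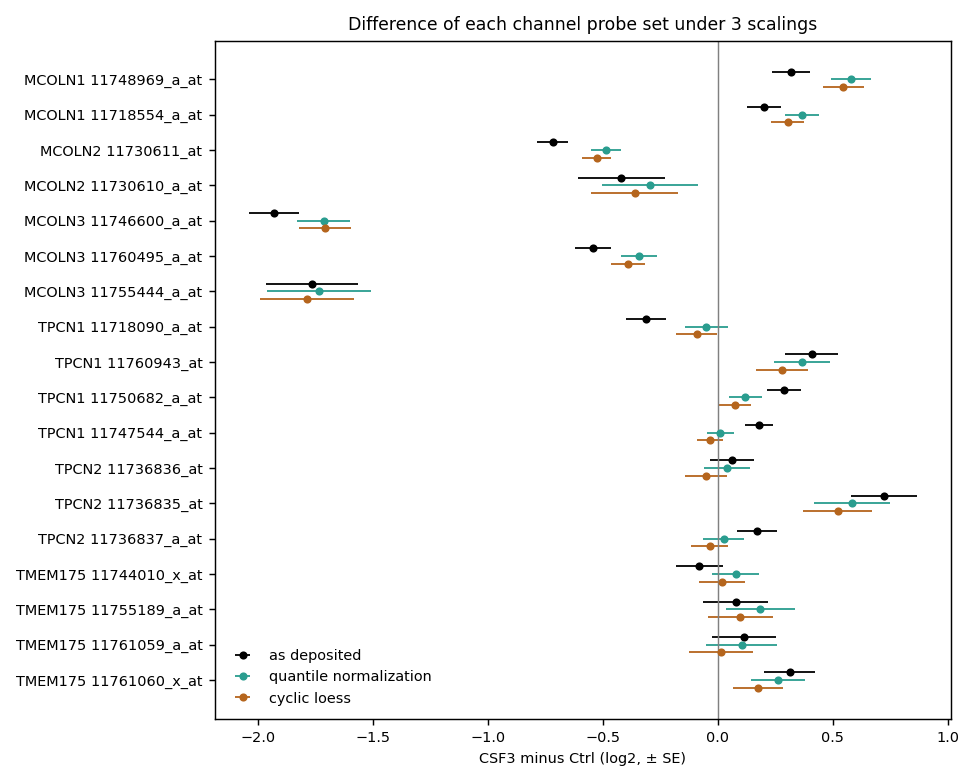
Difference of CSF3 minus Ctrl (horizontal axis, log2, with bars of ± 1 standard error) for the 18 channel probe sets as deposited (black), after quantile normalization (green) and after cyclic loess normalization (brown). MCOLN2 and MCOLN3 stay below 0 and MCOLN1 above 0 under all 3, while 11747544_a_at of TPCN1 moves from 0.18 to -0.035.

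Set against probe sets of like level, 2 of the 3 MCOLN3 probe sets lay farthest out. All probe sets were ordered by their mean signal and divided into 50 bins of 899 or 900. Of the 18 channel probe sets, 15 lay between the 10th and 90th percentile of the differences in their bin, 2 below and 1 above. Those below were the MCOLN3 probe sets 11746600_a_at and 11755444_a_at, whose bins had medians of -0.27 and 0.01 and 10th percentiles of -1.02 and -0.96. The remaining MCOLN3 probe set, 11760495_a_at, lay within its band, at -0.38 from its bin median. The one above was 11736835_at of TPCN2, in a bin with a median of 0.24 and a 90th percentile of 0.62. The MCOLN1 pair lay 0.56 and 0.33 above the medians of their bins, and 11730611_at of MCOLN2 lay 0.53 below. TPCN1 and TMEM175 followed probe sets of like level, with distances from the bin median between -0.11 and 0.24. This placement uses the same contrast and is a description.

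**Figure D3:**
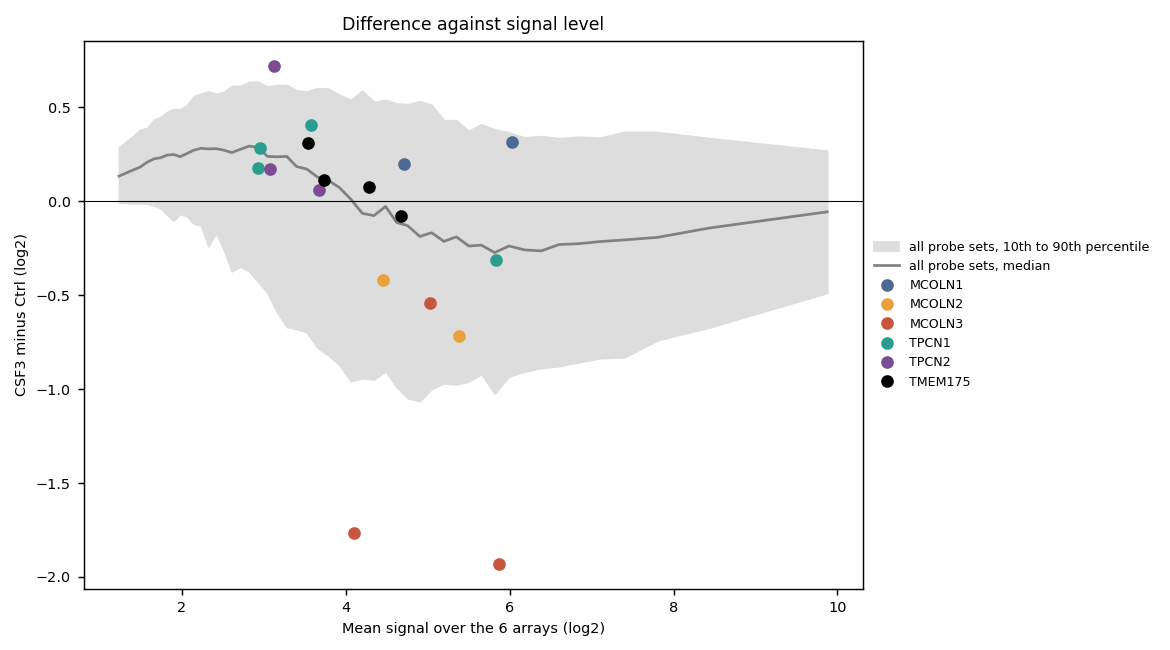
Difference of CSF3 minus Ctrl (vertical axis, log2) against the mean signal over the 6 arrays (horizontal axis, log2), with the grey line and band giving the median and the 10th to 90th percentile of all probe sets in 50 level bins. Coloured points are the 18 channel probe sets, of which 2 of MCOLN3 lie below the band and 1 of TPCN2 above it.

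The genes whose profile came nearest to that of 11746600_a_at were SLC2A10, ADGRA3, SEL1L, TTN and ITPRIPL2. Likeness was the root mean square distance over the 6 arrays after subtracting each gene's Ctrl mean, and these 5 had distances from 0.13 to 0.16 log2 units. Their brightest probe sets differed by -2.01, -1.90, -1.82, -1.85 and -1.88. Other probe sets disagreed in part: those of SEL1L, which encodes an adaptor of endoplasmic reticulum degradation, ran from -1.82 to 0.67, and those of the glucose transporter gene SLC2A10 from -2.01 to 0.11. Both probe sets of TTN and of ADGRA3 and all 3 of ITPRIPL2 were negative.

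MCOLN2 and MCOLN3 are neighbours in the RefSeq gene order, and the 3 protein-coding genes on either side were therefore looked at after both had been seen to read lower. The genes directly beside the pair were dim and did not read lower. LPAR3, a receptor for lysophosphatidic acid next to MCOLN2, gave 1.81 ± 0.16 on Ctrl and 2.16 ± 0.26 on CSF3 arrays (SD, n = 3). DNAI3, a ciliary dynein gene next to MCOLN3, and SYDE2 beyond it differed by 0.13 ± 0.12 and 0.19 ± 0.10 (SE) and missed the threshold (limma adjusted p = 0.363 and 0.111). C1orf52 rose where it was brightest (0.33 ± 0.07, limma adjusted p = 0.00254) while its dimmest gave -0.52. On the other side, the brightest probe set of SSX2IP, which encodes a protein of centrosomes and cell junctions, differed by -0.04 ± 0.06 (limma adjusted p = 0.557), although its 7 probe sets ran from -0.89 to 0.26 and 4 of them were at -0.57 or below. CTBS, which encodes the lysosomal enzyme di-N-acetylchitobiase, fell by 0.77 ± 0.06 where it was brightest (limma adjusted p = 2.98e-05), and its other two gave -1.77 and -0.77.

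**Figure D4:**
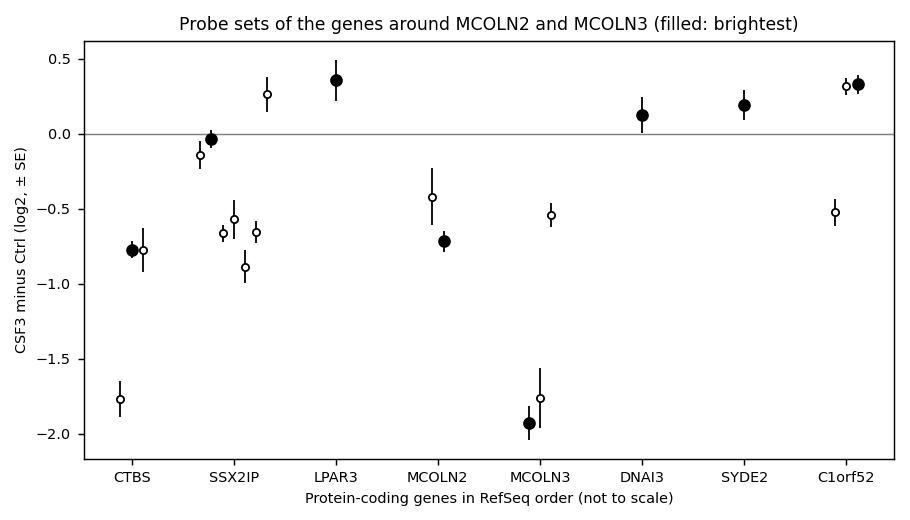
Difference of CSF3 minus Ctrl (vertical axis, log2, with bars of ± 1 standard error) for every probe set of MCOLN2, MCOLN3 and the 3 protein-coding genes on either side in RefSeq order, with the brightest probe set of each gene filled. LPAR3 and DNAI3, directly beside the pair, lie above 0 at 0.36 and 0.13, whereas all 3 probe sets of CTBS lie below 0.

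Genes that act in making or removing PI(3,5)P2, the lipid that opens mucolipins and TPC channels, or its precursor PI3P mostly fell. Of 10 measured with the brightest probe set per gene, 8 fell and 0 rose at a limma adjusted p under 0.05, against 27.1% and 45.4% of all 18132 genes, and the median was -0.63 against 0.16 for all genes. Probe sets in the level bins of these genes had a median difference of -0.22. FIG4, a phosphatase of the complex that makes the lipid, fell by 0.85 ± 0.07 on its only probe set. PIKFYVE, the kinase, fell by 0.83 ± 0.10 on its brightest probe set, but the other 4 were positive and the mean of all 5 was 0.13 (limma adjusted p = 0.148), so PIKFYVE has no settled direction. PIK3C3 and PIK3R4, the catalytic and regulatory subunits of the kinase that makes the precursor PI3P, fell by 0.56 ± 0.05 and 0.66 ± 0.06. PIK3C2A, another lipid kinase, fell by 0.68 ± 0.06 and the phosphatase gene MTMR1 fell by 0.70 ± 0.07. The highest limma adjusted p among these 6 was 0.000332. Apart from PIKFYVE they were named for having the smallest p of the list, so nothing is read from that value. PIK3C2A had 2 positive probe sets of 5 and MTMR1 2 of 4, with means over all of them of -0.36 and -0.24. With the mean of all probe sets per gene 8 of the 10 were called lower and 0 higher, against 28.2% and 47.3% of all genes. These were not the same 8, since PIKFYVE lost its call and MTMR2 gained one, at -0.44. Quantile normalization left 7 lower and 0 higher, at a median of -0.39, when 20.1% of all genes were lower and 39.2% higher.

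Genes that act with the channels in calcium and nutrient signalling fell more often than they rose, with a median near that of probe sets of like level. Of 24 measured, 15 fell and 4 rose, against 27.1% and 45.4% of all genes, and the median was -0.29 against -0.19 in the level bins of these genes. PPP3CB, a catalytic subunit of calcineurin, fell by 1.08 ± 0.06, with all 4 of its probe sets negative. PDCD6, which encodes the calcium sensor ALG-2, fell by 0.63 ± 0.05 on its brightest probe set, but its other 2 were positive and the mean of the 3 was 0.28 (limma adjusted p = 0.00552), a call in the opposite direction. MTOR fell by 0.96 ± 0.10, and ORAI1, the pore of store-operated calcium entry, fell by 0.61 ± 0.06. PRKAA1, a catalytic subunit of AMPK, rose by 0.59 ± 0.07 on its brightest probe set, but 2 of its 4 were negative and the mean was 0.03 (limma adjusted p = 0.668). The highest limma adjusted p of these 5 on the brightest probe set was 0.000253. They were named for the smallest p of the list, so nothing is read from that value. TFEB rose by 0.27 ± 0.06 (limma adjusted p = 0.00420), and both its probe sets were positive. TFE3, its relative, fell by 0.37 ± 0.09 (limma adjusted p = 0.00839). After quantile normalization TFEB was at 0.50 (limma adjusted p = 0.000299) and the TFE3 call was lost (-0.19, limma adjusted p = 0.117). The list then held 10 lower and 2 higher genes of 24, when 20.1% and 39.2% of all genes were called. With the mean of all probe sets per gene it held 12 and 4, when 28.2% and 47.3% of all genes were called.

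Other endolysosomal channels and transporters went both ways. Of 25 measured, 14 fell and 7 rose, against 27.1% and 45.4% of all genes, and the median was -0.30 against -0.21 in the level bins of these genes. After quantile normalization 10 fell and 7 rose at a median of -0.04, against 20.1% and 39.2% of all genes. CLCN3 and CLCN5, chloride and proton exchangers of endosomes, fell by 1.38 ± 0.05 and 1.16 ± 0.06. TMEM9B, of a family of accessory subunits of such exchangers, fell by 0.75 ± 0.05 on its brightest probe set, and TMEM165, a manganese handling protein of the Golgi apparatus, fell by 1.06 ± 0.08. KCNMA1, the large-conductance potassium channel, rose by 0.98 ± 0.07. The highest limma adjusted p of these 5 was 4.28e-05, but they were named for the smallest p of the list, so nothing is read from it. Of the 3 probe sets of CLCN5, 2 were positive, with a mean over all of -0.28, and 1 of the 4 of TMEM165 was at 0.19. CLCN7, the lysosomal exchanger, read 7.28 ± 0.02 and 7.21 ± 0.12 (SD, n = 3) and missed the threshold (limma adjusted p = 0.394), while its other probe set gave -0.88 and the mean of both -0.48 (limma adjusted p = 0.00161).

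The remaining TRP channels, relatives of the mucolipins, were mostly dim and mostly higher, near the difference of other dim probe sets. Of 22 measured, 14 rose and 2 fell, against 45.4% and 27.1% of all genes. The median was 0.29 against 0.24 in the level bins of these genes, whose median Ctrl level was 2.67 against 4.42 for all genes. Quantile normalization left 7 higher and 3 lower at a median of 0.09, when 39.2% and 20.1% of all genes were called, and cyclic loess normalization 7 and 4, against 36.3% and 21.4%. TRPM7, the widely expressed channel with a kinase domain, fell by 0.84 ± 0.06. TRPV6, an epithelial calcium channel, rose by 0.53 ± 0.05, and TRPM4, a calcium-activated channel, by 0.46 ± 0.07. TRPC5 and TRPM1 rose by 0.73 ± 0.07 and 0.93 ± 0.14 from Ctrl levels of 1.80 and 2.72. The highest limma adjusted p of these 5 was 0.00120, and since they were named for the smallest p of the list nothing is read from it.

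**Figure D5:**
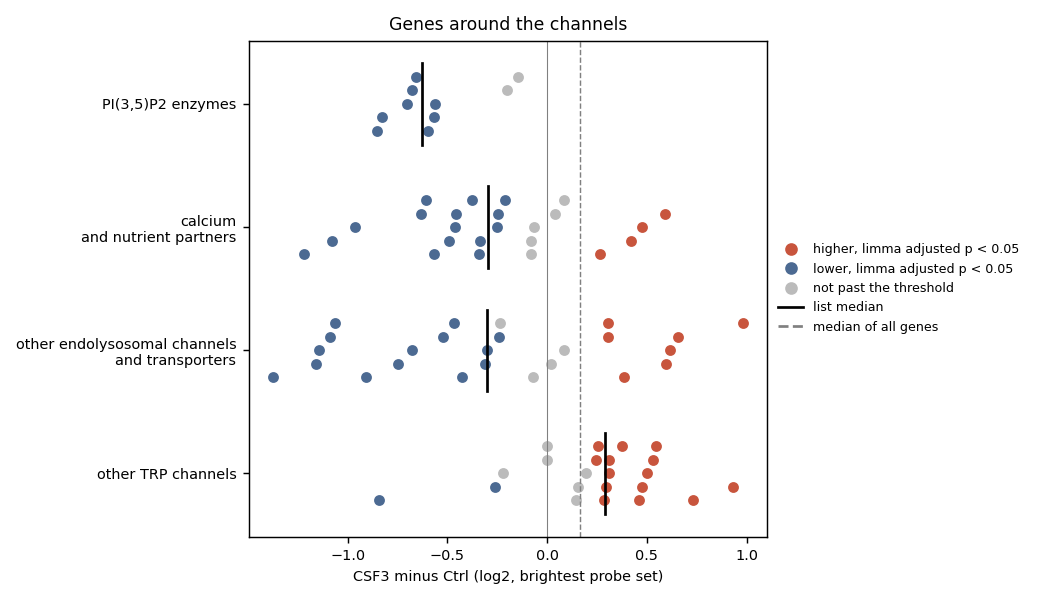
Difference of CSF3 minus Ctrl (horizontal axis, log2, brightest probe set) for each measured gene of 4 lists around the channels, coloured by whether it passed a limma adjusted p of 0.05, with black bars at the list medians. The list labelled PI(3,5)P2 enzymes has a median of -0.63 and the remaining TRP channels one of 0.29, with the median of all genes at 0.16 (dashed).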

How the data were processed

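Expression was measured on 6 arrays, 3 per group. The authors deposited a log2 signal for each of 49395 probe sets on every array. That scale is read from the range (0.81 to 12.7), and their background correction, summarisation and normalization were not given in the sources used here. Depth does not apply to arrays. Gene names came from the platform annotation, in which 44988 probe sets had 1 gene, and 1832 with several, 2473 with none and 102 array controls were left out. CSF3 minus Ctrl was fitted with limma 3.58.1 under R 4.3.3 (lmFit, eBayes), once over all single-gene probe sets and once over 18132 genes by their brightest probe set, with Benjamini-Hochberg adjustment over each whole table and a threshold of 0.05. The fit was tested on simulated data. No detection calls were used.

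The members and lists were chosen with earlier results of these data known. All probe sets of the 6 channel genes are named, and in each list of neighbouring pathway genes the 5 with the smallest p, with PIKFYVE, TFEB, TFE3 and CLCN7 whatever their values, and the 5 genes nearest in profile to MCOLN3. Marker genes are given in the check of the cell line, and the neighbours of MCOLN2 and MCOLN3 were added after seeing the data, as were the means over probe sets and the level bins of list genes. Alternatives were quantile and cyclic loess normalization, array medians subtracted, the 30% dimmest features left out, eBayes with trend and robust settings, the replicate number as a block, the mean of a gene's probe sets, and leaving out each array.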

Additional observations from a re-analysis of the deposited data

Results flagged for a closer look

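Probe sets outside the gene measurements read higher on the CSF3 than on the Ctrl arrays. The median of the 18 hybridisation controls was taken on each array, and its group means differed by 1.535 (log2). For the 24 poly-A controls the same difference was 1.519. The largest difference among the 23 background probe sets was 0.338. Groups of 3 arrays are too small for a test of single arrays that stand apart.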

How the results depend on the processing

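MCOLN3, MCOLN2 and MCOLN1 kept their direction on all their probe sets under every alternative run. Every run used the contrast that the choice of genes had used. The directions and calls of channel probe sets are therefore a description, and nothing is read from them. The call of the dimmer MCOLN1 probe set, 11718554_a_at, did not hold throughout. It was lost with array medians subtracted, with trend and robust settings and with the replicate block. Leaving out any array except CSF3 replicate 3 also lost it, with differences from 0.15 to 0.25 over all such runs. Leaving out 1 array gave -2.05 to -1.86 for the brightest MCOLN3 probe set. Quantile normalization left 4 channel probe sets called higher (7 as deposited), 2 calcium and nutrient partners (4) and 7 remaining TRP channels (14). Cyclic loess normalization left 3, 2 and 7, called 4 TRP channels lower (2), and turned 11747544_a_at of TPCN1 to -0.035. Under quantile and cyclic loess normalization 12597 and 11509 of all probe sets were called higher (16513), and 7107 and 6584 of all genes (8227). The cause was not tested. Without the 30% dimmest features fewer were tested, and 10326 probe sets, 4767 genes, 2 calcium and nutrient partners, 4 other endolysosomal genes and 6 TRP channels were called higher and 1 TRP channel lower. The mean of all probe sets turned TPCN1 to 0.14, against -0.31 on its brightest, and also PIKFYVE (0.13 against -0.83) and PDCD6 (0.28 against -0.63), and took PRKAA1 from 0.59 to 0.03. Leaving out each array gave 3 to 6 channel probe sets called higher, with 3 without Ctrl replicate 2 and 4 without Ctrl replicate 3. Of all 44988 probe sets 13259 to 15989 were then called higher, with 13455 and 13259 without those replicates, against 16513 as deposited. With the replicate block 5 channel probe sets were called higher and 5 lower, when 16110 and 12651 of all probe sets were. Of 18132 genes 8086 were then called higher and 4782 lower. The labels do not say what same-numbered arrays share beyond the number. Their deviations correlated at 0.027 to 0.038, against -0.038 to 0.009 for other pairs, and each array correlated best with its own number. No probe set is known to lie above background: the background probe sets, which differ in GC content, read 0.958 to 9.43 on the Ctrl arrays.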

Other observations

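The spread within groups was wider on the CSF3 arrays for each of the 18 channel probe sets, where 72.3% of all probe sets had the larger SD on those arrays. The median SD was 0.061 on Ctrl and 0.175 on CSF3 arrays for the channels, and 0.068 and 0.111 for all probe sets (log2, n = 3 per group). The 7 channel probe sets in the dimmer part of the table, split at the median level, all had positive differences. The 11 in the brighter part had 7 negative and 4 positive ones. All probe sets had median differences of 0.23 in the dimmer and -0.16 in the brighter part, so these signs are no trait of the channels alone.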
